A study of Mus musculus with 48 samples.

Results

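The comparison described here set the livers of 4 female hCYP2B6-Tg mice against those of 4 female Cyp2b-null mice that had all been given the high dose of perfluorooctanesulfonic acid (PFOS), a persistent fluorinated surfactant that collects in the liver. The members are the 8 libraries that the sample labels place in these groups, of 48 libraries in the series, and each library is messenger RNA of 1 mouse. The series crossed 2 sexes, 2 genotypes and 3 doses, and the dose of this comparison was 10 mg/kg/day (10-PFOS) by oral gavage for 21 days, in water with a detergent, in C57Bl/6J mice of 10 to 12 weeks on a diet with 18% of its kcal as fat. Every mouse, controls included, lacks the liver genes Cyp2b9, Cyp2b10 and Cyp2b13 through a Crispr/Cas9 deletion, and hCYP2B6-Tg mice carry in addition a human transgene with CYP2B6, CYP2A13 and CYP2F1 that was bred onto the Cyp2b-null background. Each genotype is 1 breeding line, so the transgene and other differences between the lines cannot be told apart. The authors also reported more PFOS in the liver and serum of hCYP2B6-Tg than of Cyp2b-null females at this dose. Genotype and the amount of PFOS retained therefore cannot be told apart in this comparison. The counts cover mouse genes, and the human transgene was not measured here.

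The liver takes up organic anions, bile acids among them, through organic anion transporting polypeptides (Oatps, encoded by Slco genes) and sodium-dependent bile acid carriers. Hepatic lipid synthesis is run by sterol regulatory element-binding proteins, SREBP2 for cholesterol and SREBP1 for fatty acids, and the latter genes rise with feeding and insulin while genes of glucose output such as Pck1 rise with fasting. PFOS is known as an activator of the nuclear receptor PPARa and of the constitutive androstane receptor in rodent liver, and CYP2B6 is the main human enzyme of the family that this second receptor controls. Whether the genotype changes the response of the liver to PFOS, and which carriers and lipid genes differ with it, is the question this comparison addresses.

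Libraries held 47121954 to 49826998 counts in the hCYP2B6-Tg group and 47793547 to 60039974 in the Cyp2b-null group. The deleted genes still received counts in every mouse. For Cyp2b9 these were 1442, 1776, 1264 and 1180 counts in hCYP2B6-Tg mice 1 to 4 and 1306, 1464, 1246 and 1882 in Cyp2b-null mice 1 to 4, for Cyp2b10 they ran from 562 to 1032 and for Cyp2b13 from 198 to 376. The groups overlapped for all 3 genes, and 0 of 5 Cyp2b genes passed the test between the genotypes (edgeR, log2 fold change 0.20 for Cyp2b9 and 0.24 for Cyp2b10, 0 at an unadjusted p below 0.05). Reads of similar Cyp2b genes are hard to assign to 1 gene, and the source of these counts was not tested. Hepatocyte markers summed to 43686 to 53389 CPM (read counts scaled to a common, normalised library size) in hCYP2B6-Tg and 46818 to 56258 in Cyp2b-null livers. Of the markers that passed the filter on low counts, none was called by edgeR, but no T and NK cell or adipocyte marker passed it, and 2 of 7 neutrophil and 2 of 6 acinar markers did. The adipocyte markers Adipoq, Plin1 and Lep were at 0 in all 8 livers, as were Ctrb1 and Pnlip of the pancreas. In whole liver, fewer cells of a type and less RNA per cell cannot be told apart.

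Single libraries stood apart, and this has to be known before the results. In hCYP2B6-Tg mouse 2, 24 of 29 acute phase genes lay above all 7 other mice, and 47 genes were more than 2 times above the highest of the others, against 2 to 18 genes in each other library. In the other direction, 79 genes of Cyp2b-null mouse 1 and 70 of hCYP2B6-Tg mouse 2 were under 0.5 times the lowest of the others, against 10 to 37 in each other library. Cyp2b-null mouse 4 was less extreme gene by gene, with 17 such genes, but in the lipid genes described below it sat among the hCYP2B6-Tg mice and not with its own group. Results are therefore given with all 8 mice, and for part of the lists and genes also without mouse 2 of hCYP2B6-Tg. Few calls held without that mouse, as given below, so a call printed without such a value need not hold. Where it matters, results are also given without mouse 4 of Cyp2b-null. That omission takes away the control mouse most like the other group and so can only be read beside the full value.

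Of 13193 genes tested, 473 (3.59%) differed between the genotypes at an adjusted p below 0.05, and such a gene is called here. Of these, 178 (1.35%) were higher in hCYP2B6-Tg livers and 295 (2.24%) lower, and 139 (1.05%) moved by more than 1 on the log2 scale. The mice of the groups did not overlap for 1261 genes (9.56%), 666 (5.05%) with all hCYP2B6-Tg mice higher and 595 (4.51%) with all lower. The median log2 fold change of all genes was 0.01. At an unadjusted p below 0.05 (edgeR) there were 2428 of the 13193 genes, and unadjusted counts of single lists below stand beside that share. Counts of called genes in single lists below stand beside the 1.35% higher and 2.24% lower of all genes tested. The 473 calls rest on the spread shared by all 24 female libraries, for with only the 8 libraries in the fit 4 genes were called.

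The number called moved with single mice in either direction. Without hCYP2B6-Tg mouse 2 it was 22 (0.167%), without Cyp2b-null mouse 1 it was 24 and without Cyp2b-null mouse 3 it was 41. Leaving out hCYP2B6-Tg mouse 1 or 3, or Cyp2b-null mouse 2, gave 109, 159 and 129. Without Cyp2b-null mouse 4 it rose to 1001 (7.60%) and without hCYP2B6-Tg mouse 4 to 751. Without mouse 2 of hCYP2B6-Tg and mouse 4 of Cyp2b-null together, an omission chosen after seeing the data, it was 531 (4.05%), of which 328 were among the 473. In each of the 8 fits with 1 mouse left out, 16 genes (0.121%) were called, 8 in each direction. The higher ones were Slco1a4, Slco1a5, Slco1a6, Gm6614, Mir22hg, Rn7s1, Rn7s2 and Bmp6, and the lower ones were Cebpg, Uhrf2, Rap2a, Tmem170, Kctd21, Slc5a3, Tcf24 and Gm29758.

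**Figure D1:**
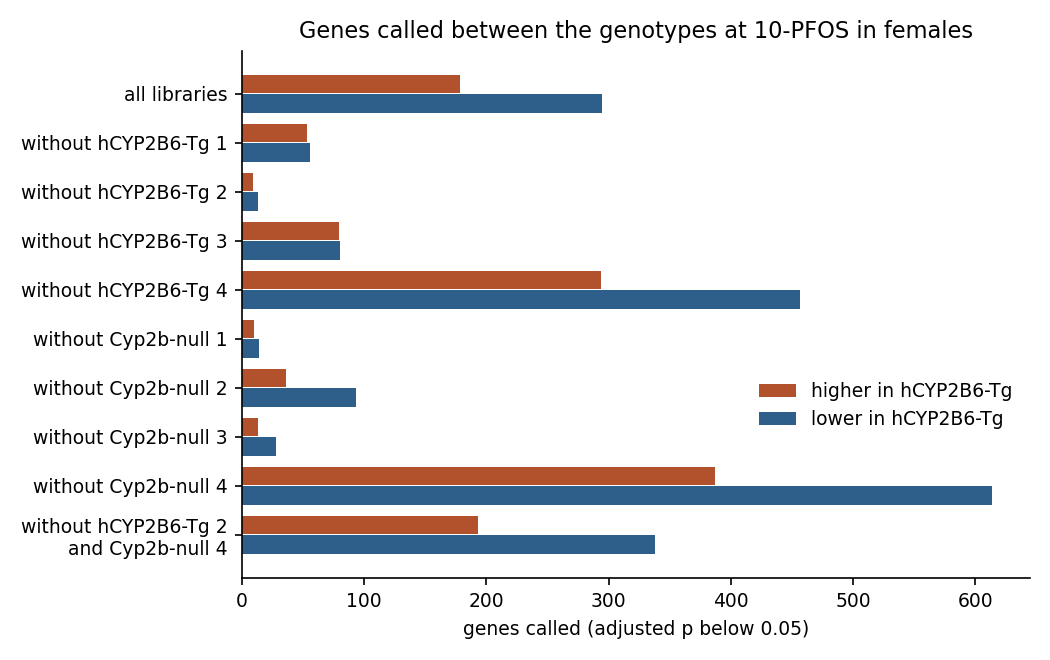
Genes called between the genotypes in females at 10-PFOS (horizontal axis, number of genes at an adjusted p below 0.05), with all libraries and with the named library or libraries left out. The bars for higher (178) and lower (295) genes shrank to 9 and 13 without hCYP2B6-Tg mouse 2 and grew to 387 and 614 without Cyp2b-null mouse 4.

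The Oatp1a uptake carriers were among the genes called with any 1 mouse left out, although not with the 8 libraries alone in the fit. Of 10 organic anion and bile acid uptake carriers tested, 3 were higher in hCYP2B6-Tg livers and 1 was lower, against 1.35% and 2.24% of all genes tested. The median log2 fold change of these carriers was 0.09, and without hCYP2B6-Tg mouse 2 the 3 higher ones were still called and the lower one was not. Slco1a4, which encodes Oatp1a4, a carrier of bile acids, steroid conjugates and digoxin, measured 191, 287, 227 and 184 CPM in hCYP2B6-Tg mice 1 to 4 and 80.4, 72.7, 69.3 and 124 CPM in Cyp2b-null mice. All 4 hCYP2B6-Tg livers lay above all Cyp2b-null livers, with mouse 2 the highest of the one group and mouse 4 the highest of the other. The means were 222 ± 47.1 and 86.7 ± 25.6 CPM (SD, n = 4), a 2.56-fold difference (log2 1.36, SE 0.19, adjusted p = 0.0029, and 0.011 without mouse 2).

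Slco1a5 (Oatp1a5) measured 24.8, 36.1, 27.7 and 21.3 CPM in hCYP2B6-Tg mice against 12.1, 7.44, 8.61 and 14.7 CPM. Slco1a6 (Oatp1a6) measured 7.96, 12.4, 9.07 and 8.31 against 3.46, 2.05, 2.91 and 4.38 CPM. Neither gene's groups overlapped, and again mouse 2 was the highest of the hCYP2B6-Tg livers and mouse 4 the highest of the Cyp2b-null livers. The differences were 2.57-fold for Slco1a5 (log2 1.36, SE 0.22, adjusted p = 0.0051) and 2.95-fold for Slco1a6 (log2 1.56, SE 0.28, adjusted p = 0.0089), and without mouse 2 the adjusted p were 0.024 and 0.046. With the 8 libraries alone in the fit, Slco1a4, Slco1a5 and Slco1a6 kept log2 fold changes of 1.34, 1.34 and 1.54 and missed the threshold (adjusted p = 0.063, 0.064 and 0.063).

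In the order of the RefSeq table these genes are neighbours on mouse chromosome 6, as Slco1a4, Slco1a1, Gm6614, Slco1a6 and Slco1a5. Gm6614, a gene model between them that was singled out after its values were seen, measured 11.8, 17.4, 13.9 and 10.9 CPM in hCYP2B6-Tg livers and 6.65, 4.06, 4.38 and 6 CPM in Cyp2b-null livers. It was 2.57-fold higher without overlap (log2 1.36, SE 0.23, adjusted p = 0.0071, and 0.03 without mouse 2). Slco1a1, which lies in the same row of genes and is a carrier of male liver, measured 3.59, 4.52, 4.19 and 3.47 against 2.17, 2.2, 2.58 and 2.4 CPM, and although these did not overlap it was not called (log2 0.75, SE 0.69, adjusted p = 0.61). The Slco1a genes are similar in sequence, the sources read do not say how reads matching several of them were assigned, and the part of shared reads in these values was not tested.

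Carriers outside this row of genes did not follow it. Slco1b2 (Oatp1b2), the other main hepatic Oatp, measured 454, 462, 429 and 528 CPM in hCYP2B6-Tg and 468, 473, 481 and 462 CPM in Cyp2b-null livers (log2 -0.01, SE 0.11, adjusted p = 0.98). Slc10a1, the sodium-dependent bile acid carrier of hepatocytes, had a log2 fold change of 0.20 (SE 0.14, adjusted p = 0.49), and Slco2b1, Slco2a1 and Slco3a1 had -0.41, -0.46 and -0.52 (adjusted p = 0.14, 0.057 and 0.31). Slc10a2, the bile acid carrier known from ileum and bile ducts, was lower at 2.48, 1.98, 1.73 and 2.24 CPM against 15.3, 7.7, 11 and 1.43 CPM. Here 3 Cyp2b-null mice lay far above all hCYP2B6-Tg mice and Cyp2b-null mouse 4 below them (log2 -2.07, SE 0.51, adjusted p = 0.027, and 0.1 without hCYP2B6-Tg mouse 2). Summed cholangiocyte markers ran from 23.3 to 33.4 CPM in hCYP2B6-Tg and from 27.8 to 38.3 CPM in Cyp2b-null livers, and their part in the Slc10a2 difference was not tested.

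**Figure D2:**
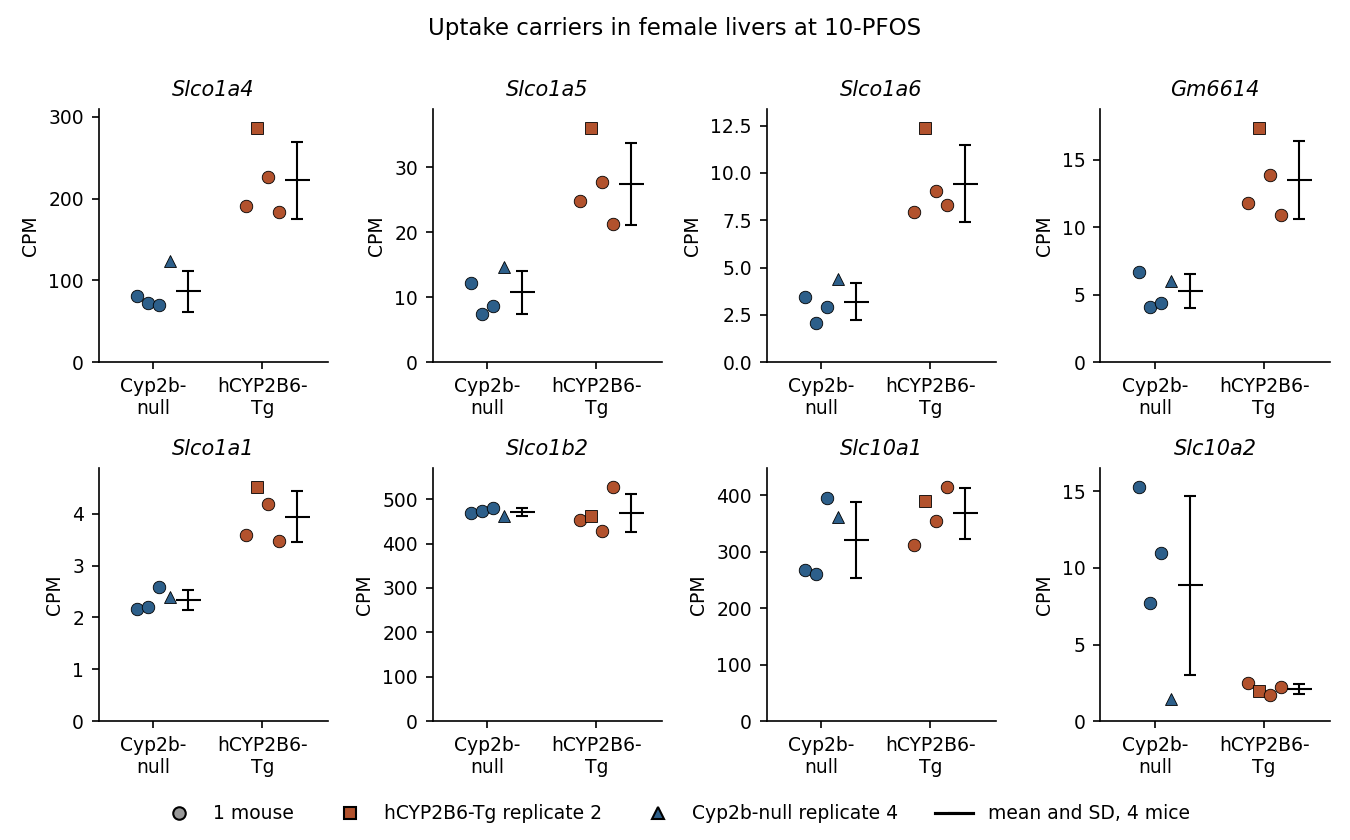
Level of 8 uptake carrier genes in each mouse (vertical axis, CPM, starting at 0; each point is 1 mouse; black lines are the mean and SD of 4 mice). For Slco1a4, Slco1a5, Slco1a6 and Gm6614 every hCYP2B6-Tg mouse lies above every Cyp2b-null mouse, while Slco1b2 and Slc10a1 overlap and Slc10a2 is high in 3 Cyp2b-null mice.

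Group means at the other doses are given as a description, since changes with dose within a genotype were not tested. The interaction of genotype with 10-PFOS against no PFOS was called for 0 genes by edgeR. Slco1a4 averaged 157 ± 29.6 CPM in Cyp2b-null and 214 ± 23.8 CPM in hCYP2B6-Tg females without PFOS, and 186 ± 26.8 and 211 ± 39.5 CPM at 1-PFOS. The hCYP2B6-Tg mean at 10-PFOS (222 CPM) was thus near its means at the lower doses, and the Cyp2b-null mean (86.7 CPM) was the low value among the 6 female groups. Slco1a5 showed the same order, with 18.1 ± 3.64 and 25.6 ± 3.63 CPM without PFOS in Cyp2b-null and hCYP2B6-Tg females and 10.7 and 27.5 CPM at 10-PFOS. The genotype difference was not called without PFOS for either gene (log2 0.45 and 0.50, unadjusted p = 0.024 and 0.028).

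Genes that take up fatty acids changed in both directions. Of 14 fatty acid uptake and binding genes, 2 were higher and 1 lower (median log2 fold change 0.04), and without hCYP2B6-Tg mouse 2 none of the 14 was called by edgeR. Slc27a1 (Fatp1), a fatty acid transport protein best known from muscle and fat, measured 89.7, 108, 67.5 and 64.9 CPM in hCYP2B6-Tg livers and 15.8, 37.3, 16.3 and 60.3 CPM in Cyp2b-null livers. The groups did not overlap, with Cyp2b-null mouse 4 next to the hCYP2B6-Tg mice, and the difference was 2.54-fold (log2 1.35, SE 0.32, adjusted p = 0.026). Slc27a2 (Fatp2), the main fatty acid transport protein of liver and a very-long-chain acyl-CoA synthetase, measured 1438, 1837, 1356 and 1390 against 952, 985, 990 and 1178 CPM (log2 0.55, SE 0.12, adjusted p = 0.018, and 0.086 without mouse 2). Acsl3, an acyl-CoA synthetase of lipid droplets, was lower (23.1, 9.7, 21.3 and 27.4 against 80.9, 42.5, 66.6 and 15.9 CPM, log2 -1.34, adjusted p = 0.031), with Cyp2b-null mouse 4 inside the range of the hCYP2B6-Tg mice. Cd36 (log2 0.04), Fabp1 (-0.33) and Mttp (0.08) were not called, with adjusted p of 0.95, 0.66 and 0.81.

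Lipid droplet proteins had 2 of 12 tested members higher and none lower (edgeR, median log2 fold change 0.00). Pnpla2, the lipase that starts the breakdown of stored triglyceride, measured 175, 255, 192 and 161 CPM against 85.5, 96.9, 81.8 and 162 CPM, so that only Cyp2b-null mouse 4 reached the hCYP2B6-Tg mice (log2 0.88, SE 0.21, adjusted p = 0.024). It was not called without hCYP2B6-Tg mouse 2 (edgeR). Plin4, a coat protein of droplets, was raised mostly through mouse 2, since its log2 fold change went from 2.33 to 1.31 without it (adjusted p = 0.036 and 0.27). The main droplet coat gene Plin2 was not called (689, 496, 677 and 816 against 1109, 849, 1038 and 585 CPM, log2 -0.42, adjusted p = 0.31).

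Of the gene lists examined, those of lipid synthesis held the most lower genes. Of 25 cholesterol synthesis genes and SREBP2 targets, 6 were lower and none higher (edgeR), all 25 had negative log2 fold changes, and the median was -1.51. Of 25 fatty acid and triglyceride synthesis genes, 11 were lower and none higher, 22 were negative, and the median was -1.37. Both counts depend on single mice. Without hCYP2B6-Tg mouse 2 none of either list was called by edgeR, although the medians stayed at -1.18 and -1.19, and without Cyp2b-null mouse 4 there were 20 and 19 lower genes with medians of -1.83 and -1.63. With both mice left out, 14 and 13 were lower, with medians of -1.5 and -1.44.

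The mean log2(CPM + 1) of the cholesterol list was 5.66, 4.51, 5.84 and 6.32 in hCYP2B6-Tg mice 1 to 4 and 7.49, 6.95, 7.41 and 5.68 in Cyp2b-null mice. That of the fatty acid list was 6.6, 6.04, 6.41 and 6.92 against 7.96, 7.34, 8.32 and 6.49. In both lists Cyp2b-null mice 1 to 3 lay above all hCYP2B6-Tg mice, Cyp2b-null mouse 4 lay among them, and hCYP2B6-Tg mouse 2 was the lowest liver. Females without PFOS spanned 6.54 to 7.49 (Cyp2b-null) and 5.86 to 7.69 (hCYP2B6-Tg) for the cholesterol list and 6.99 to 7.44 and 6.73 to 7.35 for the fatty acid list. Among those 4 ranges, the cholesterol values of Cyp2b-null mice 1 to 3 fell inside the range of their untreated group, whereas their fatty acid values in mice 1 and 3 lay above it. Cyp2b-null mouse 4 lay below the range of its untreated group in both lists. In both lists hCYP2B6-Tg mice 1 to 3 also lay below the range of their untreated group, and hCYP2B6-Tg mouse 4 lay inside it.

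Among the cholesterol genes, Pmvk, a kinase of the mevalonate pathway, measured 8.66, 8.87, 9.07 and 20.7 against 46.6, 36.3, 54.7 and 14.8 CPM (log2 -1.69, SE 0.35, adjusted p = 0.017). Its 3 high livers were Cyp2b-null mice 1 to 3, all above the highest hCYP2B6-Tg liver, while Cyp2b-null mouse 4 lay below it. Fdps, which makes farnesyl diphosphate, measured 59, 14.8, 78.8 and 175 against 434, 299, 549 and 72.4 CPM (log2 -2.05, SE 0.56, adjusted p = 0.045). The sterol enzymes Nsdhl and Sc5d had log2 fold changes of -1.75 and -1.36, and Insig1, Cyp51 and Mvd, at -1.38, -1.81 and -2.29, missed the threshold with adjusted p of 0.05, 0.053 and 0.053. The transcription factor gene Srebf2 was at -0.62 (adjusted p = 0.14).

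Among the fatty acid genes, Fasn, the fatty acid synthase, measured 230, 106, 255 and 443 CPM in hCYP2B6-Tg livers and 1883, 565, 2903 and 195 CPM in Cyp2b-null livers. Its 3 high values were again Cyp2b-null mice 1 to 3, and the SD of that group (1244 CPM) came close to its mean of 1387 CPM (5.36-fold lower, log2 -2.42, SE 0.56, adjusted p = 0.024). Acly, which supplies acetyl-CoA from citrate, measured 58.3, 33.4, 59.5 and 102 against 399, 162, 603 and 57.7 CPM (log2 -2.27, SE 0.47, adjusted p = 0.016). Gpam, the acyltransferase that opens glycerolipid synthesis, measured 262, 221, 227 and 262 against 1309, 442, 1444 and 217 CPM (log2 -1.81, SE 0.37, adjusted p = 0.016). The hCYP2B6-Tg livers were close together for Gpam, with an SD of 22.1 CPM. Cyp2b-null mice 1 to 3 lay above all of them, and Cyp2b-null mouse 4 lay below. Elovl6 (chain elongation), Acss2 (acetyl-CoA from acetate), Acacb (malonyl-CoA), Me1 (NADPH), Pklr (glycolysis) and Pnpla3 were lower with log2 fold changes of -2.56 to -1.16 and adjusted p of 0.026 to 0.047. Elovl6 measured 80.3, 29.7, 75 and 130 against 294, 166, 482 and 77.5 CPM, with the same 3 Cyp2b-null mice high. Scd1, Srebf1 and Mlxipl were not called (log2 -1.37, -1.02 and -0.39, adjusted p = 0.073, 0.14 and 0.28), and the triglyceride enzymes Dgat1, Dgat2 and Agpat2 had positive values of 0.34, 0.13 and 0.22 (adjusted p = 0.11, 0.72 and 0.53).

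Angptl8, a secreted inhibitor of fat uptake by tissues that rises with feeding, was 1 of 2 genes of this list of 25 whose mice did not overlap, and the other, Lpin1, was not called (log2 -1.28, adjusted p = 0.12). Over all genes tested, 4.51% had all hCYP2B6-Tg mice lower without overlap. Angptl8 measured 4.09, 3.91, 4.97 and 4.09 CPM in hCYP2B6-Tg livers and 17.5, 10.6, 28.3 and 8.45 CPM in Cyp2b-null livers, and without hCYP2B6-Tg mouse 2 it was at log2 -1.89 with an adjusted p of 0.07. Females without PFOS averaged 29 ± 13.9 CPM (hCYP2B6-Tg) and 16.9 ± 7.96 CPM (Cyp2b-null), so the genotypes had the opposite order there (log2 0.78, unadjusted p = 0.045).

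**Figure D3:**
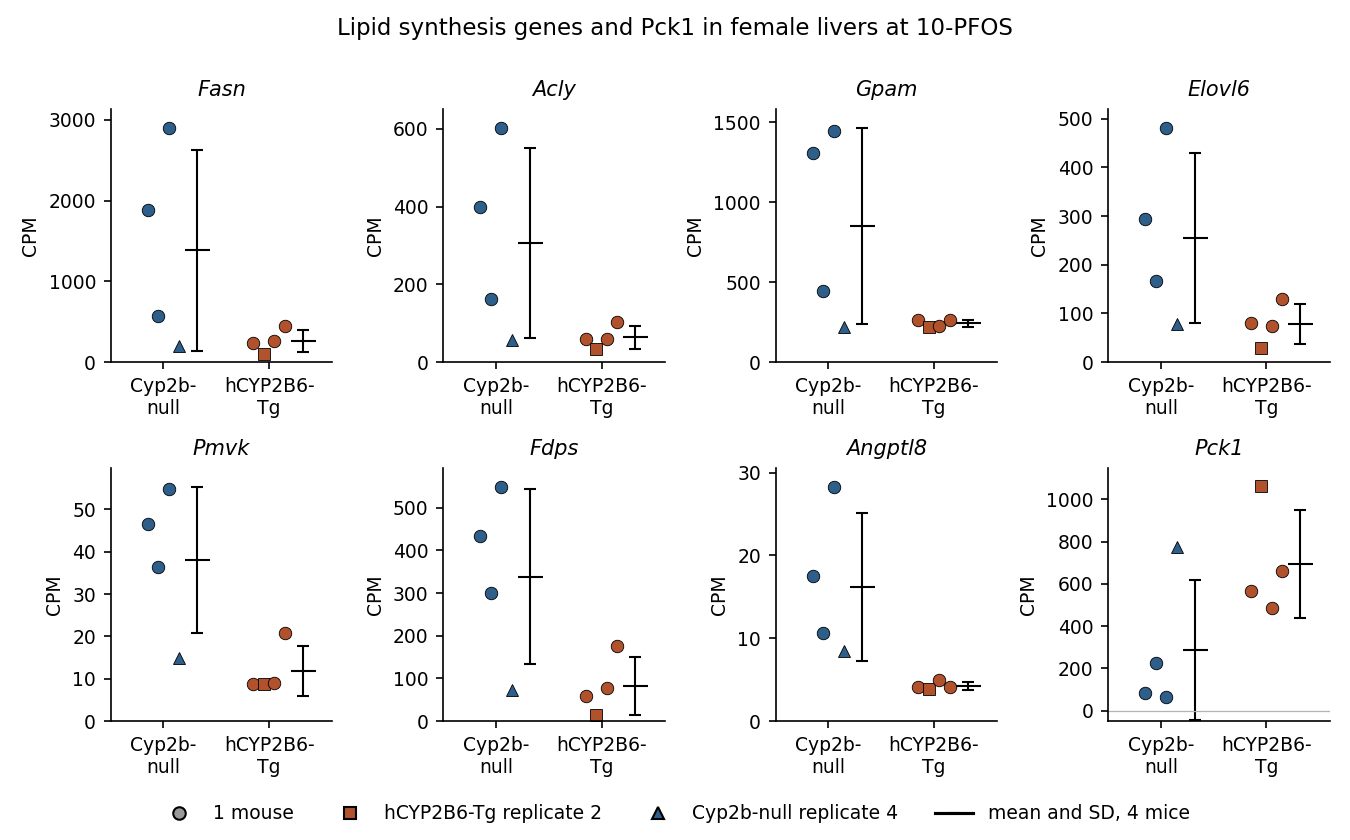
Level of 7 lipid synthesis genes and of Pck1 in each mouse (vertical axis, CPM; each point is 1 mouse; black lines are the mean and SD of 4 mice, which for Pck1 reach below 0). Cyp2b-null mice 1 to 3 lie above the hCYP2B6-Tg mice for the lipid genes and below them for Pck1, and Cyp2b-null mouse 4 (triangle) lies with the hCYP2B6-Tg mice except for Angptl8.

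Of 16 genes of glucose output and of the fed and fasted states, 1 was higher and 2 lower (median log2 fold change 0.22). G6pc, the catalytic subunit of glucose-6-phosphatase, measured 169, 268, 158 and 153 CPM in hCYP2B6-Tg livers and 52.2, 80, 99.9 and 102 CPM in Cyp2b-null livers without overlap (log2 1.16, SE 0.30, adjusted p = 0.034, and 0.15 without mouse 2). Ppp1r3b, which brings protein phosphatase to glycogen, measured 25.9, 73.3, 53.3 and 30 against 308, 100, 269 and 51.2 CPM (log2 -2.0, SE 0.41, adjusted p = 0.016), and it was still called without hCYP2B6-Tg mouse 2 (adjusted p = 0.03), where its log2 fold change was -2.32. Ide, the insulin-degrading enzyme, measured 142, 72.5, 144 and 92.1 against 282, 192, 251 and 193 CPM, with no overlap (log2 -1.03, SE 0.25, adjusted p = 0.026). Unlike Ppp1r3b, it was not called without hCYP2B6-Tg mouse 2 (edgeR).

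Pck1, the gluconeogenic carboxykinase, measured 568, 1064, 486 and 662 CPM against 85.1, 224, 64.5 and 774 CPM. Cyp2b-null mouse 4 thus had a Pck1 level inside the hCYP2B6-Tg range, as it had for Fasn, and the gene was not called with it (log2 1.28, adjusted p = 0.18) and was called without it (log2 2.48, adjusted p = 0.0018). Among clock genes, 0 of 12 that peak by day and 0 of 5 that peak at dawn were called by edgeR, with 1 in each list at an unadjusted p below 0.05, and 11 of the 12 day genes had positive values. In females without PFOS the medians of these lists were 1.43 and -1.07, with 11 of 12 and 4 of 5 genes at an unadjusted p below 0.05 and 0 called by edgeR. The part of these clock gene values in the untreated means given here was not tested. Per1, a clock gene that also answers to glucocorticoids, measured 18.5, 25.9, 20.2 and 10.7 CPM against 5.95, 4.71, 5.96 and 10.3 CPM, without overlap but with a wide error (log2 1.48, SE 0.72, adjusted p = 0.27). Time of death and feeding before it are not in the labels, and their part in the lipid, glucose and clock values was not tested.

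Chaperones of the heat shock response were lower in hCYP2B6-Tg livers in 3 of 22 tested genes, with none higher (edgeR), 20 negative values and a median log2 fold change of -0.36. Without hCYP2B6-Tg mouse 2 none was called by edgeR (median -0.37) and without Cyp2b-null mouse 4 there were 6. Hsph1 (Hsp110), a partner of Hsp70, measured 19.3, 14.1, 16.6 and 12.8 CPM in hCYP2B6-Tg livers and 59.9, 37.4, 35.1 and 28.4 CPM in Cyp2b-null livers, and its groups did not overlap. It was 2.56-fold lower (adjusted p = 0.011, and 0.054 without mouse 2). Hspa4l, a relative of Hsph1, measured 16.8, 14.6, 15.5 and 24.1 against 45.9, 31, 42.6 and 19.1 CPM (log2 -0.96, SE 0.21, adjusted p = 0.018). Chordc1, a cochaperone of Hsp90, measured 14.9, 15.5, 16 and 15.6 against 33, 27, 28.6 and 15.6 CPM, where Cyp2b-null mouse 4 equalled an hCYP2B6-Tg liver (log2 -0.75, SE 0.19, adjusted p = 0.029). The inducible Hspa1a and Hspa1b, near-identical copies whose reads are hard to tell apart, were at -0.23 and -0.20 and not called (adjusted p = 0.63 and 0.71).

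Heat shock factor binds inverted GAA units, and the letters of such units stand in the promoters of some of these genes. The windows below run from 250 bases before to 50 bases after the start of Hsph1 and Chordc1 (RefSeq, build GRCm38.p6, 5′ to 3′ on the gene's strand), with GAANNTTC and TTCNNGAA in capitals, overlapping matches joined. They are shown because these are called chaperone genes whose windows hold both arrangements. The Hsph1 window is chr5:149636287-149636586 on the minus strand and the Chordc1 window chr9:18292017-18292316 on the plus strand.
Hsph1: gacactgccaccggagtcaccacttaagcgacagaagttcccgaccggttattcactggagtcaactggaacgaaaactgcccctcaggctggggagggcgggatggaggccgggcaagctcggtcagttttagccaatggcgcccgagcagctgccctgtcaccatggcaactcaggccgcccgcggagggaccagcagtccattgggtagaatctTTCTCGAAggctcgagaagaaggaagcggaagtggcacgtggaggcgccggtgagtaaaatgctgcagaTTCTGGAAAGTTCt
Chordc1: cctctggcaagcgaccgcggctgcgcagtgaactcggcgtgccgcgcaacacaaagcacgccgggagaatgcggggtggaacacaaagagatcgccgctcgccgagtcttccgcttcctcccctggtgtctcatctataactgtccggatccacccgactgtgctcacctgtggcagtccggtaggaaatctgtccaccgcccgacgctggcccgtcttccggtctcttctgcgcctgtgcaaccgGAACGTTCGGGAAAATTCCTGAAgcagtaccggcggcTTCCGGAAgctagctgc

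On either strand, GAANNTTC stood in 10 of 18 promoter windows matched to tested chaperone genes, against 7.35% of the 10134 windows of all tested genes, and TTCNNGAA in 5 of 18 against 8.61%. The motif is a description of these letters, not of binding. Of the 3 called chaperones, Hspa4l held neither in its window. The sterol regulatory element TCACNCCAC stood in the windows of Hmgcs1 and of Mlxipl, 1 of 17 cholesterol and 1 of 19 fatty acid genes matched, and 1.43% of all tested genes held it, so that none of the called lipid genes with a window had these letters in it.

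In the unfolded protein response list, 1 of 25 was lower and none higher (edgeR), a share near that of lower genes among all genes tested (2.24%). Of the 25, 23 had negative and 2 positive log2 fold changes, with a median of -0.25. The called gene was Ern1, the sensor IRE1, at 24.2, 18.4, 23.1 and 28 CPM in hCYP2B6-Tg livers against 58.3, 51.3, 50.3 and 29.7 CPM (log2 -1.02, SE 0.21, adjusted p = 0.016). Ern1 was not called without hCYP2B6-Tg mouse 2 (edgeR). In the ATF4 amino acid stress list, 2 of 28 were lower (median -0.16). Cebpg, a partner of ATF4, measured 20.3, 21.7, 18.2 and 21.9 CPM against 54, 42.2, 42.2 and 28 CPM, and Cyp2b-null mouse 4 was the lowest of its group yet above all hCYP2B6-Tg livers. It was 2.03-fold lower (log2 -1.02, SE 0.15, adjusted p = 0.004) and stayed called in every fit with 1 mouse left out. Ddit3 (CHOP), a factor of stress-linked cell death, measured 3.42, 1.56, 2.12 and 1.32 against 3.72, 6.64, 3.51 and 4.18 CPM (log2 -1.1, SE 0.27, adjusted p = 0.026), while Atf4 itself was at -0.22 (adjusted p = 0.57). Ddit3 was not called without hCYP2B6-Tg mouse 2 (edgeR). Atf3, an early stress factor, was 4.5-fold lower (1.48, 1.36, 1.87 and 3.03 against 5.3, 17.5, 4.6 and 7.49 CPM, adjusted p = 0.019, and 0.088 without hCYP2B6-Tg mouse 2), and Cyp2b-null mouse 2 had its highest value. In females without PFOS Atf3 averaged 1.45 ± 0.714 CPM in hCYP2B6-Tg and 1.52 ± 1.2 CPM in Cyp2b-null livers.

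NRF2 target genes, which answer to oxidants and electrophiles, were higher in 4 of 20 with none lower (edgeR, median log2 fold change 0.10). Nqo1, a quinone reductase, measured 41.9, 43.9, 63.7 and 30.9 CPM against 26.2, 22.3, 26.8 and 26.3 CPM without overlap (log2 0.83, SE 0.18, adjusted p = 0.019). In females without PFOS it averaged 8.26 CPM in either genotype. Gsr (glutathione reductase), Srxn1 (sulfiredoxin) and Cbr3 (a carbonyl reductase) had log2 fold changes of 0.50, 0.54 and 0.99, each with hCYP2B6-Tg mouse 4 inside the range of the Cyp2b-null livers. Without hCYP2B6-Tg mouse 2 the 4 genes had adjusted p of 0.07 to 0.12.

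Cirbp, an RNA-binding protein gene induced by mild cold, measured 34.8, 34.8, 35.8 and 22.6 CPM in hCYP2B6-Tg livers and 6.96, 11.1, 8.91 and 19.6 CPM in Cyp2b-null livers. The groups did not overlap, and mouse 4 of each group lay nearest the other group. In females without PFOS the gene averaged 11.6 ± 3.84 and 10.7 ± 2.3 CPM in hCYP2B6-Tg and Cyp2b-null livers, so the hCYP2B6-Tg livers at 10-PFOS stood apart from both. Its relative Rbm3 also did not overlap (90.1, 109, 102 and 62.1 against 50.8, 32.4, 54.7 and 43.3 CPM) but was not called (log2 1.00, SE 0.33, adjusted p = 0.092).

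Among the mouse cytochrome P450 genes, a few were called. Of 15 Cyp2c genes, 3 were higher and none lower (edgeR, median log2 fold change -0.01), namely Cyp2c37, Cyp2c50 and Cyp2c54, near copies whose reads may be shared and whose values ran in parallel. Cyp2c37 measured 3566, 4170, 3815 and 3806 CPM in hCYP2B6-Tg livers and 2506, 2300, 2679 and 3020 CPM in Cyp2b-null livers without overlap (log2 0.55, SE 0.13, adjusted p = 0.022, and 0.089 without mouse 2). Cyp2c50 and Cyp2c54 were at 0.54 and 0.58. Of 9 tested Cyp3a genes 1 was higher, Cyp3a13, at 371, 634, 367 and 328 against 275, 240, 264 and 299 CPM, where mouse 2 was far above the others (log2 0.66, and 0.40 with an adjusted p of 0.15 without it). Cyp3a11, the main Cyp3a gene of mouse liver, was at 0.10 (adjusted p = 0.79). The 7 Cyp4a genes had positive values with a median of 0.17 and 0 calls by edgeR. Of them 3 were at an unadjusted p below 0.05, against 2428 of all 13193 genes tested. For 4 of the 7 all hCYP2B6-Tg mice lay above the Cyp2b-null mice, as they did for 5.05% of all genes.

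Among exporters, 2 of 12 ABC transporters were higher and 1 lower (median log2 fold change 0.15), and none was called by edgeR without hCYP2B6-Tg mouse 2. Abcc2, which exports conjugates into bile, measured 1174, 1007, 1201 and 754 CPM against 819, 692, 644 and 585 CPM (log2 0.59, SE 0.16, adjusted p = 0.036). Abcg8, a subunit of the sterol exporter, measured 82.9, 75.1, 91.7 and 86 against 60.3, 38.8, 55.3 and 62.4 CPM without overlap (log2 0.63, SE 0.16, adjusted p = 0.033), and its partner Abcg5 was at 0.54 with an adjusted p of 0.056. Abcb11, the bile salt export pump, was lower in 3 of 4 hCYP2B6-Tg livers at 281, 208, 240 and 400 against 423, 410, 488 and 397 CPM (log2 -0.61, SE 0.16, adjusted p = 0.035). In the bile acid synthesis list 1 of 12 tested genes was called, Akr1d1, a steroid reductase of that pathway, at 214, 260, 200 and 213 against 165, 147, 175 and 149 CPM without overlap (log2 0.48, SE 0.12, adjusted p = 0.029, and 0.13 without hCYP2B6-Tg mouse 2). Cyp7a1, the rate-limiting enzyme of bile acid synthesis, measured 28.2, 31.7, 21.4 and 17.2 against 12.3, 62.2, 10.4 and 17.7 CPM and was not called (log2 -0.06, adjusted p = 0.96).

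Of 9 Slc22 organic ion transporters, 2 were lower and none higher (edgeR, median log2 fold change -0.09). Slc22a27 measured 8.7, 4.74, 7.89 and 12 CPM against 19.4, 15.2, 21.3 and 10 CPM, and Slc22a30 20.4, 10.7, 16.3 and 30.1 against 39.5, 36.1, 45.9 and 24.8 CPM. In both, mouse 4 of each group crossed into the other group's range (log2 -0.98 and -0.92, adjusted p = 0.018 and 0.034). Neither gene was called without hCYP2B6-Tg mouse 2 (edgeR). Of 14 genes known to be higher in female liver, 1 was higher (Sult3a1, a sulfotransferase, 2.78, 10.4, 1.91 and 2.33 against 0.438, 0.759, 1.1 and 0.635 CPM, log2 2.56, and 1.66 with an adjusted p of 0.21 without mouse 2) and 1 lower (Slc22a27, named above). Of 13 tested genes higher in male liver, 0 were called by edgeR, with 3 at an unadjusted p below 0.05.

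The acute phase list is the one in which mouse 2 was already known to stand apart, and it speaks for its own genes only. These are the plasma proteins that the liver makes more of in inflammation. Of 28 tested, 4 were higher and 1 lower (median log2 fold change 0.52), and without hCYP2B6-Tg mouse 2 none was called by edgeR and the median was 0.13. Saa1, serum amyloid A, measured 8.01, 1226, 9.07 and 13.4 CPM in hCYP2B6-Tg livers against 2.76, 10.9, 5.67 and 12.6 CPM, a level 121 times the mean of the other hCYP2B6-Tg mice, and its near copy Saa2 measured 1183 CPM in mouse 2 against 2.58 to 12 CPM elsewhere. Their log2 fold changes went from 5.29 and 5.37 to 0.34 and 0.35 without that mouse. The fibrinogen genes Fga, Fgb and Fgg were 2.16, 1.99 and 2.06 times the mean of the other hCYP2B6-Tg mice there, and Orm2 3.89 times. Steap4 and Cp were in mouse 2 below all 7 other livers (15.1 and 722 CPM). Summed neutrophil markers were 9.88 CPM in mouse 2, the highest of the 8 livers, against 5.08 to 7.68 CPM in the Cyp2b-null livers, and their part in these values was not tested. Crp, which is a minor acute phase protein in the mouse, was lower (100, 93, 92.8 and 148 against 160, 156, 160 and 143 CPM, log2 -0.51, adjusted p = 0.047, and 0.18 without mouse 2).

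Rn7s1 and Rn7s2, the non-coding RNAs of the particle that directs nascent proteins to the endoplasmic reticulum, had the same count in 48 of 48 libraries and are 1 measurement. It was 22.9, 18.9, 12 and 14.8 CPM in hCYP2B6-Tg livers and 3.59, 5.35, 4.05 and 1.91 CPM in Cyp2b-null livers. The groups did not overlap, and mouse 2 was not apart in this gene (adjusted p = 0.0084, and 0.03 without it). With the 8 libraries alone in the fit it was among the 4 genes called (adjusted p = 0.046). In females without PFOS it averaged 6.94 ± 2.26 and 6.63 ± 1.31 CPM in hCYP2B6-Tg and Cyp2b-null livers. These RNAs have no poly(A) tail, so in libraries made by poly(A) selection their level also depends on the carry-over of other RNA, which was not tested.

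Mir22hg, the host transcript of miR-22, a microRNA abundant in liver, measured 33.6, 26.2, 25 and 15 CPM in hCYP2B6-Tg livers and 6.87, 8.44, 7.51 and 14.1 CPM in Cyp2b-null livers. As for Cirbp, mouse 4 of each group lay nearest the other, and the adjusted p was 0.0057, and 0.024 without hCYP2B6-Tg mouse 2. The mature microRNAs that the transcript carries are given here with the seed (bases 2 to 8) in capitals (RefSeq, build GRCm38.p6, chr11:75463772-75463793 and chr11:75463734-75463755, plus strand). Their own levels were not measured by these libraries.
mmu-miR-22-3p: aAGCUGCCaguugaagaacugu
mmu-miR-22-5p: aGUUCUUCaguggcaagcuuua

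Further genes were named because they had the highest or lowest fold changes among called genes whose mice did not overlap. Bhmt, which remethylates homocysteine from betaine, measured 3376, 4467, 2819 and 2605 CPM in hCYP2B6-Tg livers and 1679, 1275, 1443 and 1015 CPM in Cyp2b-null livers (log2 1.29, SE 0.31, adjusted p = 0.026). Aass, which starts lysine breakdown, measured 363, 649, 293 and 300 against 229, 171, 185 and 223 CPM, and Sult1d1, a sulfotransferase, 156, 273, 185 and 134 against 90.8, 89.6, 97.4 and 111 CPM. In both, mouse 2 was the highest liver (log2 0.99 and 0.95, and 0.66 and 0.71 without it). Pim3, a serine/threonine kinase, was at 1.1.

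Among the lower genes of that kind, Uhrf2, a ubiquitin ligase that binds modified DNA and histones, measured 10.6, 8.69, 8.84 and 11.9 CPM against 19.3, 23.6, 19.8 and 15 CPM (log2 -0.96, SE 0.14, adjusted p = 0.004). Mmp15, a membrane-bound matrix protease, measured 11.8, 10.3, 13.3 and 16.5 against 24, 25.6, 24 and 28.2 CPM, and here Cyp2b-null mouse 4 was the highest liver and not near the other group (log2 -0.97, SE 0.19, adjusted p = 0.016). Zfp982, a zinc finger gene, was likewise highest in that mouse (4.87, 6.63, 8.11 and 5.94 against 13, 14.1, 14.9 and 19.9 CPM). Shank2, Rnf186, Pogk, Unc13b, S1pr1, Dnajb2 and Mfhas1 had log2 fold changes of -1.25 to -0.80. Without hCYP2B6-Tg mouse 2, 5 of the 15 higher and 2 of the 15 lower named genes were still called. Without that mouse and Cyp2b-null mouse 4 there were 9 and 15.

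**Figure D4:**
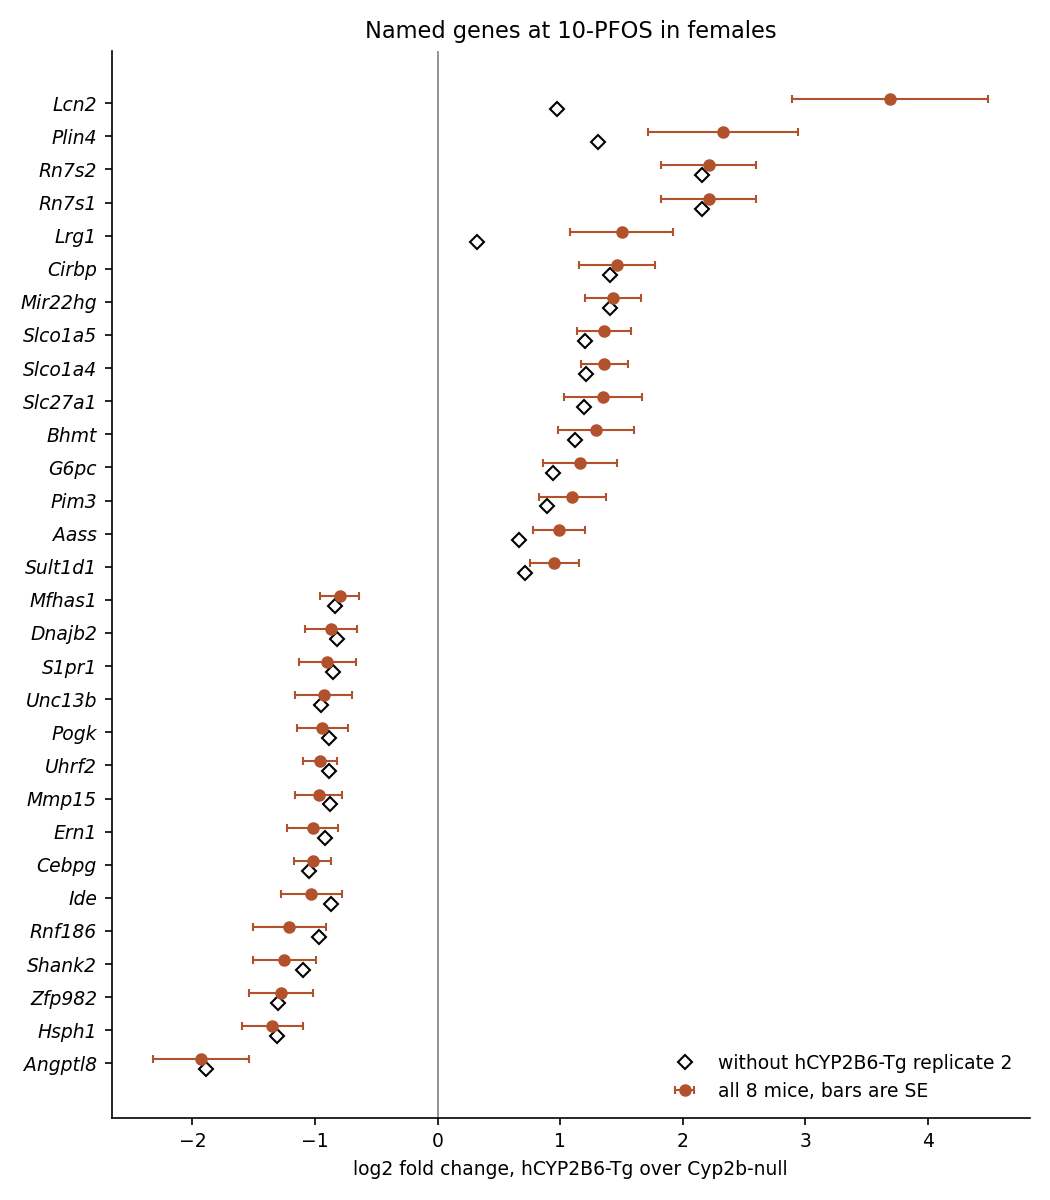
Log2 fold change of hCYP2B6-Tg over Cyp2b-null females at 10-PFOS (horizontal axis) for the 15 named genes with the highest and the 15 with the lowest values, with all 8 mice (filled points, bars are SE) and without hCYP2B6-Tg mouse 2 (open diamonds). Lcn2, Plin4, Lrg1 and Aass were among the genes that moved toward 0 without that mouse by more than their SE, whereas Slco1a4, Slco1a5, Mir22hg, Cirbp and Rn7s1 moved by less than theirs. Of the latter genes, Cirbp was not called without that mouse (edgeR).

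Lower genes that were called in every fit with 1 mouse left out include Rap2a, a small GTPase, at 6, 7.81, 6.02 and 5.72 CPM against 13.4, 11.3, 10.3 and 9.4 CPM (log2 -0.80, SE 0.12, adjusted p = 0.004). Slc5a3, a sodium-coupled carrier of the osmolyte myo-inositol, measured 1.59, 1.25, 1.3 and 1.54 against 3.61, 4.44, 2.37 and 2.87 CPM (log2 -1.23, SE 0.22, adjusted p = 0.0084). Tmem170, Kctd21, Tcf24 and Gm29758 were at -0.72, -1.09, -1.37 and -1.23 without overlap. Bmp6, a ligand that induces the iron hormone hepcidin, was the small rise in this set, at 6.44, 6.59, 7.66 and 6.46 CPM against 4.47, 3.53, 4.27 and 4.33 CPM (log2 0.71, SE 0.14, adjusted p = 0.016). In Tmem170 and Bmp6 the SD within each group was under 1 CPM. These genes were named for their calls in every fit, after their values were seen.

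Several further gene lists gave no call between the genotypes. Their counts at an unadjusted p below 0.05 stand beside 2428 of 13193 for all genes tested (edgeR). Of 27 fatty acid oxidation and PPARa target genes 0 were called by edgeR, with 4 at an unadjusted p below 0.05 and a median log2 fold change of 0.12. Acot1 and Pdk4 were at -0.13 and -0.45 (adjusted p = 0.85 and 0.68). Interferon response genes had 0 calls of 29 (1 unadjusted), p53 and growth control genes 0 of 17 (0 unadjusted), cell cycle genes 0 of 19 (0 unadjusted), prostaglandin and epoxide enzymes 0 of 17 (4 unadjusted), purine enzymes 0 of 14 (3 unadjusted) and mitochondrially encoded genes 0 of 13 (1 unadjusted). Of 6 mouse Cyp2a, Cyp2f and Cyp2g genes, relatives of the other human genes on the transgene, 0 were called (1 unadjusted, median 0.25). Among 12 tested splicing regulators Ddx17, an RNA helicase, was lower (48.1, 45.2, 48.4 and 51.6 against 88.5, 77.8, 73.6 and 56.6 CPM without overlap, log2 -0.62, adjusted p = 0.025), and among 13 tested immediate early genes Atf3 was the called one. Neither Ddx17 nor Atf3 was called without hCYP2B6-Tg mouse 2 (edgeR).

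The same contrast at the other doses gave no call by edgeR, with 0 of 13193 genes (0%) without PFOS and 0 (0%) at 1-PFOS, and 676 and 826 genes at an unadjusted p below 0.05. DESeq2 called 6 and 11 there, edgeR's likelihood ratio test 4 and 8, and limma voom called 39 without PFOS. An effect called at 10-PFOS and not at another dose is not by that shown to differ, and the test of the difference, the interaction of genotype with 10-PFOS against no PFOS, gave 0 calls by edgeR (0%, 1357 at an unadjusted p below 0.05, 37 by the likelihood ratio test, 40 by DESeq2, 33 by limma voom, and 22 by edgeR without Cyp2b-null mouse 4). The lowest adjusted p among the genes of the lists and the named genes was 0.16, shared by Cebpg, Angptl8, Uhrf2, Rap2a, Tcf24, Gm29758, Cdkn1a and Gart, and the first 5 of these had interaction values of -1.1, -2.71, -0.89, -0.81 and -1.49 on the log2 scale.

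The medians of the lists with most calls show the same spread of values across doses. For the cholesterol list the median log2 fold change was -0.24 without PFOS, -0.37 at 1-PFOS and -1.51 at 10-PFOS, and for the fatty acid synthesis list -0.07, 0.06 and -1.37. For Fasn the Cyp2b-null mean lay farther from its untreated level than the hCYP2B6-Tg mean did. Fasn averaged 481 ± 128 CPM in untreated Cyp2b-null and 365 ± 180 CPM in untreated hCYP2B6-Tg females, against 1387 ± 1244 and 259 ± 139 CPM at 10-PFOS. For others both groups moved, as for Acly, with 220 ± 42.3 and 190 ± 76.9 CPM untreated and 305 ± 244 and 63.3 ± 28.5 CPM at 10-PFOS, and for Slc27a1, with 10 ± 2.08 and 12.7 ± 2.94 CPM untreated and 32.4 ± 21.1 and 82.5 ± 20.2 CPM at 10-PFOS. Changes with dose within a genotype were not tested here, and these means are a description.

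In males at 10-PFOS the same contrast called 7 of 12594 genes (0.0556%), 3 higher (0.0238%) and 4 lower (0.0318%), none of them a gene named here. The test of the difference between the sexes, the interaction of sex and genotype at 10-PFOS, called 226 of 13271 genes (1.70%), 84 (0.633%) with the more positive value in females and 142 (1.07%) with the more negative. It uses the same female mice and moves with them, from 39 calls without hCYP2B6-Tg mouse 2 to 553 without Cyp2b-null mouse 4. Slco1a4 measured 71.4 ± 14.1 CPM in hCYP2B6-Tg males and 96.4 ± 31 CPM in Cyp2b-null males (log2 -0.43), and its interaction was called (1.78, adjusted p = 0.019). Slco1a5 was at -0.42 in males (interaction adjusted p = 0.0079), while Slco1a6 was at -0.01 and its interaction missed the threshold (adjusted p = 0.062).

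In the lipid lists, 3 cholesterol genes and 10 fatty acid synthesis genes had a called interaction, all more negative in females, and the male medians were -0.10 and 0.11. Fasn averaged 570 ± 180 CPM in hCYP2B6-Tg and 496 ± 125 CPM in Cyp2b-null males (log2 0.20 against -2.42 in females, interaction adjusted p = 0.028). Ppp1r3b averaged 68.3 ± 26.7 and 36.8 ± 10 CPM in males, the opposite order to females, and its interaction was called (-2.90, adjusted p = 0.003). Cebpg had the lowest adjusted p of the named genes for the interaction (-1.22, adjusted p = 0.00076). Rn7s1 had a male value close to its female value of 2.21, at 18.4 ± 13.3 against 4.3 ± 3.57 CPM (log2 2.09, adjusted p in males 0.31, interaction adjusted p = 0.97).

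**Figure D5:**
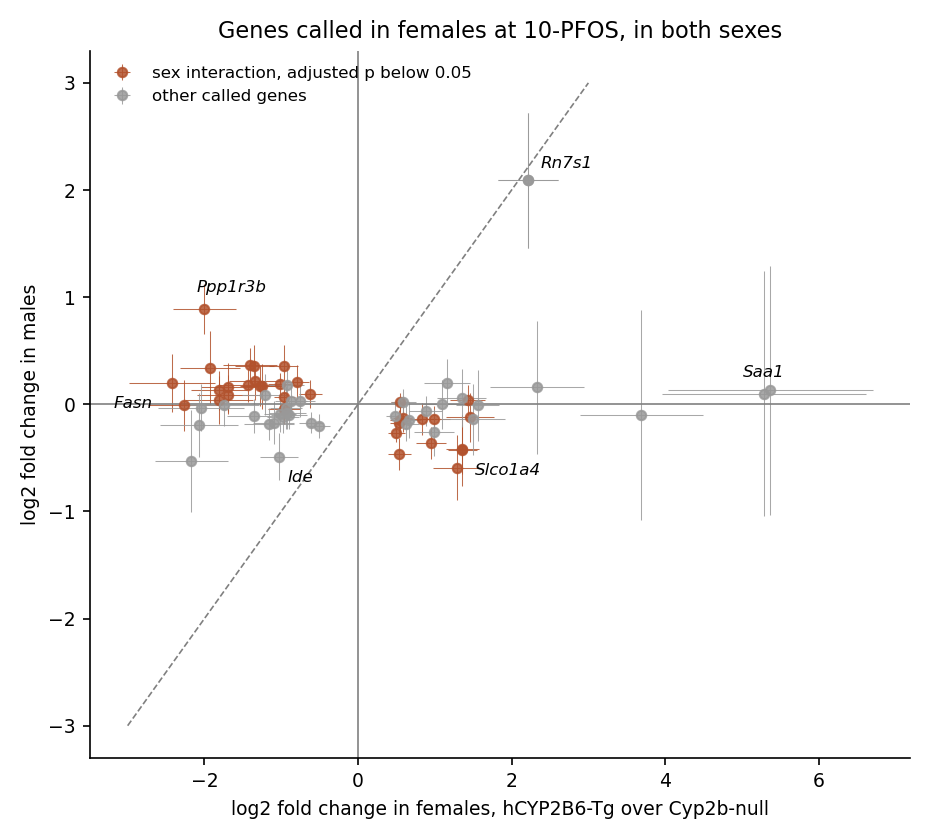
Log2 fold change of hCYP2B6-Tg over Cyp2b-null at 10-PFOS in females (horizontal axis) and in males (vertical axis) for 70 named genes called in females and tested in males, with bars of SE and a dashed line where the sexes are equal. Rn7s1 and Rn7s2 lie near the line, at 2.21 in females and 2.09 in males, and 34 genes (coloured) have a called interaction of sex and genotype. The genes drawn were chosen by their female calls, which favours a called interaction, and over all genes 1.70% had one.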

How the data were processed

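The authors deposited tables of read counts per gene for females and for males, and no normalization had been applied to these deposited counts. Trim Galore, RSEM, featureCounts, edgeR and the mouse build GRCm39 are named in the submitters' processing notes. Libraries were made from poly(A) RNA. Of counts above 0, 91.1% (females) and 91.2% (males) were even, and no source read here gives the reason. The libraries were sequenced in read pairs, so a count may hold both reads of a fragment, and the depths printed here may then be up to 2 times the number of fragments. Broken rows numbering 25 for either sex (0.0432% and 0.0281% of counts) were left out, with which 6 genes were lost (Dst, Huwe1, Mycbp2, Neb, Syne1 and Ttn). The other 168 files hold the authors' fold changes and p-values and were not used, nor were 64 columns of per-sample values in 8 of them.

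Genes above 1 CPM in at least 3 of 4 mice of any group were tested with edgeR 4.0.16 (quasi-likelihood test, TMM normalization, R 4.3.3, Benjamini-Hochberg adjustment over all genes tested), with all 24 female libraries in 6 groups in 1 fit, males likewise, and both sexes together for the sex interaction. CPM are counts scaled to the TMM-normalised library size. Alternatives were DESeq2 1.42.0, its size factors, limma 3.58.1 voom with sample weights, the likelihood ratio test, other filters, only the groups compared, a replicate block and each mouse left out. Scripts were tested on simulated data. Same-numbered mice of the groups compared had correlations of 0.053, -0.124, -0.008 and -0.13 in their deviations from group means, so the numbers do not pair them. At 1-PFOS every same-numbered pair of the genotypes correlated above 0.1, from 0.293 to 0.568 in females, and with the replicate block that contrast also had 0 calls by edgeR (883 unadjusted, against 826). No libraries of a group agreed within sampling noise (lowest chi-square per degree of freedom 36.3, which would be lower by a factor of 2 if read pairs were counted as 2).

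Genes were named if called without overlap between the mice, averaging 10 CPM or more in whichever group was higher and carrying a symbol that is not a model number (the 15 highest and 15 lowest fold changes), if called within 1 of 34 gene lists, or as members of the uptake carrier, fatty acid uptake, Cyp2b and acute phase lists. Other genes given were chosen after their values were seen. The comparison, the lists and the rule were chosen with earlier results of these data known. Some genes of these lists are counted in the totals but not reported singly here.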

Additional observations from a re-analysis of the deposited data

Results flagged for a closer look

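A mouse of a group stood far from the other 3 in 31 of the 240 groups of 4 examined, and chance gives about 1 in 20 such groups where groups are independent. These genes vary together and include acute phase genes, for which hCYP2B6-Tg mouse 2 was already known to stand apart, so the count cannot be set against that rate. Of these, 19 were in hCYP2B6-Tg mouse 2. In that mouse the levels of acute phase genes were 2771 CPM for Fga, 3271 CPM for Fgb, 1912 CPM for Fgg, 51.6 CPM for Il1r1, 1335 CPM for Itih4, 203 CPM for Lcn2, 674 CPM for Lrg1, 570 CPM for Mt2, 533 CPM for Orm1, 161 CPM for Orm2, 45.7 CPM for Orm3, 1226 CPM for Saa1, 1183 CPM for Saa2, 1173 CPM for Serpina3m and 593 CPM for Serpina3n. It also stood apart with 634 CPM for Cyp3a13, 268 CPM for G6pc, 1837 CPM for Slc27a2 and 10.4 CPM for Sult3a1. The level in Cyp2b-null mouse 4 was 30.4 CPM for Dnajb2, 20.9 CPM for Il1r1, 1178 CPM for Slc27a2 and 592 CPM for Slc27a5. The level in hCYP2B6-Tg mouse 4 was 22.6 CPM for Cirbp, 148 CPM for Crp and 20.7 CPM for Pmvk. The level in Cyp2b-null mouse 2 was 75.5 CPM for Lrg1 and 22.3 CPM for Nqo1. The level in Cyp2b-null mouse 3 was 1.18 CPM for Cd14 and 4.38 CPM for Cyp2b13. The level in hCYP2B6-Tg mouse 3 was 533 CPM for Slc27a5.

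The genotype difference at 10-PFOS differed between females and males for 34 named genes, by the interaction of sex and genotype in edgeR (adjusted p below 0.05, log2 of the female over the male fold change). Most genes were named for being called in females, and the interaction uses the same female mice, so this choice favours a call. Over all genes 1.70% had a called interaction, and the 34 cannot be set against that share. The interaction was more positive in females at 1.12 for Aass, 1.87 for Bhmt, 1.56 for Cirbp, 0.69 for Cyp2c37, 0.70 for Cyp2c50, 0.70 for Cyp2c54, 0.75 for Gsr, 1.38 for Mir22hg, 0.95 for Nqo1, 0.52 for Slc27a2, 1.78 for Slco1a4, 1.77 for Slco1a5, 0.99 for Srxn1 and 1.30 for Sult1d1. It was more negative in females at -1.63 for Acacb, -2.27 for Acly, -1.57 for Acsl3, -1.86 for Acss2, -2.27 for Angptl8, -1.22 for Cebpg, -0.72 for Ddx17, -1.80 for Elovl6, -2.63 for Fasn, -1.95 for Gpam, -0.93 for Hspa4l, -1.72 for Hsph1, -1.03 for Mfhas1, -1.34 for Mmp15, -1.79 for Pklr, -1.86 for Pmvk, -2.90 for Ppp1r3b, -1.43 for Shank2, -1.04 for Uhrf2 and -1.46 for Zfp982.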

How the results depend on the processing

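The 473 genes called in females at 10-PFOS became 773 with DESeq2 (469 of the 473 among them), 976 with limma voom (442 among them) and 4 with only the groups compared, and between 22 and 1001 with 1 mouse left out. The omissions that moved it by more than 1.5 times were those of hCYP2B6-Tg mice 1, 2, 3 and 4 (109, 22, 159 and 751) and of Cyp2b-null mice 1, 2, 3 and 4 (24, 129, 41 and 1001). The 139 genes beyond 1 on the log2 scale became 86 under a stricter filter, 4 when no other group entered the fit and 14 to 284 with 1 mouse left out. The replicate block gave 468 calls (408 of the 473 among them), and replicate numbers did not pair the mice of these groups. The dose interaction rose from 0 to 37 (likelihood ratio test), 40 (DESeq2), 33 (voom) and up to 22 with 1 mouse left out (Cyp2b-null mouse 4). The contrast without PFOS rose from 0 to 4, 6 and 39 by these tools and to 1 without hCYP2B6-Tg mouse 1 of that dose, and that at 1-PFOS to 8 and 11 by the first of these tools and to 1 without hCYP2B6-Tg mouse 1 or 2 of that dose. The 7 male calls became 19 without the filter, 40, 48 and 27 by the tools, 3 with the replicate block, 20 with only the groups compared and 1 to 18 with 1 male left out. The lowest value came without hCYP2B6-Tg male 1 or 3 or Cyp2b-null male 2 or 4, and 16 and 18 came without hCYP2B6-Tg male 2 and Cyp2b-null male 3. The 226 sex interactions became 133 without the filter, 355, 377 and 565 by the tools, 47 with only the groups compared, 348 without both mice (chosen after seeing the data) and 30 (without Cyp2b-null female 3) to 553 (without Cyp2b-null female 4) with 1 mouse left out.

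Of 75 named genes called, 9 were called without hCYP2B6-Tg mouse 2, 10 and 14 without Cyp2b-null mouse 1 or 3, 59 without both mice and 65 with the replicate block. With only the groups compared, 2 of 74 were called (Rn7s1 and Rn7s2, adjusted p = 0.046) and the others had adjusted p of up to 0.2. Uncalled genes near 0 changed sign. Cd36, between -0.12 and 0.14 with 1 mouse left out, went to -0.04 without hCYP2B6-Tg mouse 1 and without both mice and to -0.12 without Cyp2b-null mouse 4. Cyp2b13, between -0.12 and 0.14 with 1 mouse left out, went to -0.00 with voom, -0.06 with the replicate block, -0.12 without hCYP2B6-Tg mouse 2, -0.09 without both mice and -0.08 without Cyp2b-null mouse 3. Fabp2 (highest 0.16) went to -0.08 and -0.03 without mouse 4 of hCYP2B6-Tg or of Cyp2b-null, Fabp4 (-0.27 without both mice) to 0.06 without hCYP2B6-Tg mouse 1 or Cyp2b-null mouse 2, and Mttp (highest 0.22) to -0.05 without both mice and -0.03 without Cyp2b-null mouse 4. Slco1b2 (lowest -0.07) went to 0.01, 0.03 and 0.00 without hCYP2B6-Tg mouse 1, hCYP2B6-Tg mouse 3 and Cyp2b-null mouse 3. The cause of these shifts was not tested. With 4 mice in each group, differences that rest on 1 mouse cannot be settled by depth.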
